A study of Mus musculus with 35 samples.

Results

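The tissue inhibitors of metalloproteinases (TIMPs) are the 4 genes Timp1, Timp2, Timp3 and Timp4. They were taken by their gene names in the array files and are represented by 5 of the 41174 gene probes, and all 4 are among the 18671 genes tested. Timp1 has 2 probes and each of the others has 1. RNA of whole suprarenal aortas was hybridised to 35 two-colour microarrays, 1 per aorta. The aorta was labelled with Cy5 and a commercial universal mouse reference RNA with Cy3 on every array, so each value is a log2 ratio of aorta over that common reference. Values can be set against each other between aortas for one probe, but not between probes.

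All animals were male ApoE-/- mice, which lack apolipoprotein E and are prone to atherosclerosis. They were 12 to 14 weeks old when an osmotic minipump was implanted, and the saline controls carry the same gene deletion. The pump delivered angiotensin II (Ang II, the peptide hormone that raises blood pressure) at 1000 ng/kg/min, or saline. The 7 groups were dissected aneurysms after 7 days of Ang II (n = 3), non-dissected aneurysms after 7 days of Ang II (n = 4), saline at 7 days (n = 6), aneurysms after 14 days of Ang II (n = 5), saline at 14 days (n = 6), aneurysms after 28 days of Ang II (n = 6) and saline at 28 days (n = 5). The labels do not say whether the aneurysms at 14 and 28 days were dissected. The arrays measure the vessel as a mixture of cells, so fewer cells of a type and less RNA per cell cannot be told apart. All 8 contractile smooth muscle genes listed, Acta2 and Myh11 among them, passed the detection filter.

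TIMPs are small secreted proteins that plug the active site of metalloproteinases, the zinc enzymes that cut collagen, elastin and proteoglycans of the vessel wall. TIMP-1 is the inducible member, raised by cytokines and growth factors. TIMP-2 is made more steadily and, beyond inhibition, forms a complex with membrane-bound MMP-14 that helps to activate MMP-2. TIMP-3 is held in the extracellular matrix and also inhibits ADAM17 and the aggrecanases ADAMTS4 and ADAMTS5, while TIMP-4 has a narrower distribution that includes heart, vessels and fat.

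The Timp1 probes are shown because the clearest change in the family was read by both. The array files place them on the plus strand of chromosome X in the mm8 build, the second probe at chrX:20029738-20029797 and the main probe, the brighter one that stands for the gene, at chrX:20031508-20031566. Each reads from its first base in 1 frame with no stop codon.
Timp1 second probe: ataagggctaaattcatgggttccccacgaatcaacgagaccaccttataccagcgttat
Timp1 main probe: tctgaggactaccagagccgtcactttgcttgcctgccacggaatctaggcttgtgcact
The other probes lie at chr11:118117922-118117981 (Timp2, minus strand), chr10:85778750-85778809 (Timp3, plus strand) and chr6:115211721-115211780 (Timp4, minus strand). Whether a probe lies in a coding exon or a UTR is not given in the array files.

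The RefSeq promoter windows of all 4 genes (GRCm38.p6, 300 bases each) were searched on both strands for letters bound by factors known to act on Timp1. The AP-1 variant TGAGTAA was in the Timp1 window and in none of the other 3, and 2.68% of 32851 promoters hold it. The letters searched were chosen for Timp1, so its match beside that share is no test. The match begins at position 27 from the annotated start and is in capitals below, within chrX:20870181-20870210.
Timp1 promoter stretch: cggtgggtggaTGAGTAAtgcgtccaggaa
The GC box GGGCGG occurred in the windows of Timp1, Timp2 and Timp3, as in 35.66% of promoters. No window held the consensus AP-1 site TGANTCA (in 7.81% of promoters), the TATA box TATAAA (13.62%), the RUNX core TGTGGT (16.76%) or the STAT site TTCNNNGAA (8.3%). The windows of Timp2 and Timp3 were rich in G and C (68.7% and 67.0%) and held 25 and 24 CG pairs, against 55.0% and 8 CG pairs for Timp1 and 53.3% and 2 for Timp4. These matches describe letters only.

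All 5 TIMP probes were well above background in the aorta channel on 35 of 35 arrays, with no saturated or outlier-marked spot. Across arrays, 45.0% to 84.8% of spots were well above background (median 57.1%). The labels number the aortas of a group, and do not state that each came from its own animal, so p-values measure the spread between these samples, which may in part be technical. The arrays were scanned on 2 days, and all 3 dissected aortas fell on the second. After background correction 4 arrays stood apart. The median absolute log2 ratio was 0.153 and 0.151 on saline arrays 2 and 4 of 28 days and 0.265 on saline array 5 of 7 days, against 0.321 to 0.517 on the other 31 arrays, while Ang II array 4 of 14 days had 0.568 and the 84.8% of spots. Without background correction these values were, in the same order, 0.460, 0.482, 0.501 and 0.539, against 0.328 to 0.498 on the other 31 arrays. In the scanner software's log ratios they were 0.873, 0.861, 0.885 and 0.867, inside the range of 0.709 to 1.04 on the other 31. Some results that use the 4 arrays are given with and without them. Others are given with them only, among them Timp1 and Timp2 at 14 days and Timp2 and Timp3 at 28 days.

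**Figure D1:**
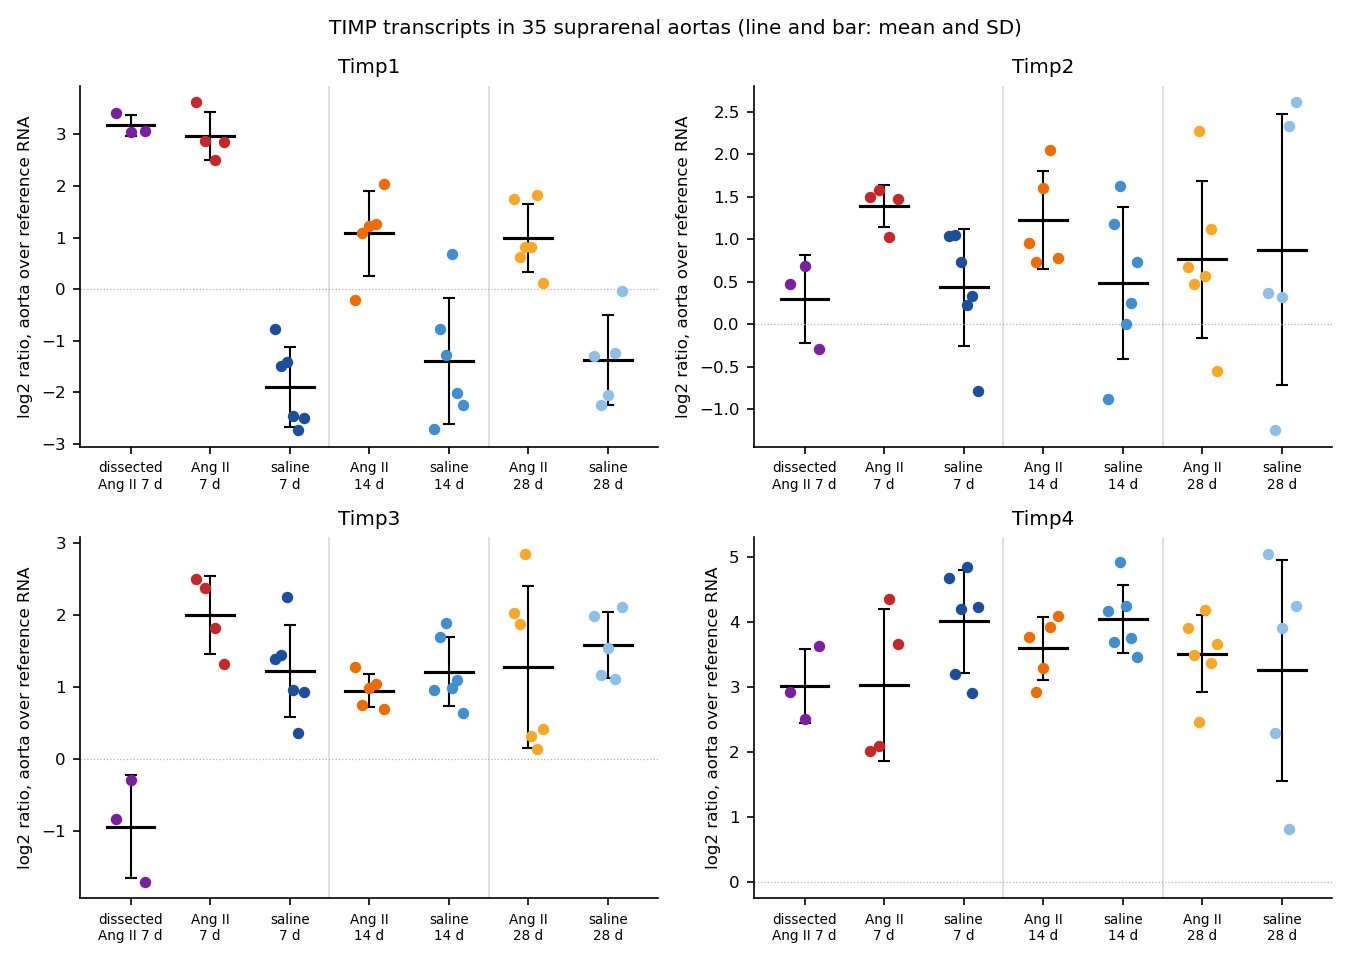
Log2 ratio of aorta over reference RNA for the probe of each TIMP gene in 35 aortas, by group, 1 point per aorta, with the group mean (line) and SD (bar). Timp1 lies between 2.51 and 3.62 in the 7-day Ang II aortas and at or below 0.68 in every saline aorta, and Timp3 lies below 0 in the 3 dissected aortas alone.

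Timp1 rose after Ang II at each of the 3 times and was the member with the largest change. At 7 days it read 3.62, 2.87, 2.51 and 2.85 in the 4 non-dissected Ang II aortas. The saline aortas of that day had a lowest value of -2.74, a median of -1.97 and a highest of -0.78. Every Ang II aorta lay above every saline aorta, as for 12.3% of all genes. The log2 change was 4.86 (SE 0.513, 95% interval 3.81 to 5.90, 29.0-fold, adjusted p = 6.98e-08 by limma with Benjamini-Hochberg adjustment over all genes). Timp1 was the 1 TIMP gene of 4 called at 7 days, where 27.2% of all genes were called at an adjusted p below 0.05.

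In the dissected aortas Timp1 was high as well. The 3 dissected aortas read 3.41, 3.05 and 3.07, all above the 7-day saline range, as for 17.2% of all genes. Against saline the log2 change was 5.07 (SE 0.562, 95% interval 3.93 to 6.22, 33.7-fold, adjusted p = 6.33e-08), and Timp1 and Timp3 were the 2 TIMP genes of 4 called in this comparison, which called 36.5% of all genes. Against the non-dissected aortas the difference was 0.22 (SE 0.607, 95% interval -1.02 to 1.46, adjusted p = 0.891), and the values of both groups overlapped. Both comparisons with saline use the same 6 saline arrays.

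At 14 days the Ang II aortas read -0.21, 1.09, 1.22, 1.26 and 2.05 for Timp1. The saline aortas had a lowest value of -2.71, a median of -1.64 and a highest of 0.68. The groups overlapped through the lowest Ang II aorta and the highest saline aorta. The change was 2.47 (SE 0.481, 95% interval 1.49 to 3.45, 5.54-fold, adjusted p = 0.00701), and 2.4% of all genes were called at this time. The call was lost with the 14-day arrays alone in the fit (adjusted p = 0.0709), with the arrays of the second scan day alone (1.90, adjusted p = 0.46) and under scale normalization between arrays (1.97, adjusted p = 1). It was also lost with the smooth muscle and fibroblast marker means as covariates (1.69, adjusted p = 0.282).

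At 28 days Timp1 had a lowest value of 0.13, a median of 0.82 and a highest of 1.82 in Ang II aortas. The 5 saline aortas read -1.30, -2.25, -2.04, -1.23 and -0.03, so that every Ang II aorta lay above every saline aorta, as for 1.04% of all genes. The change was 2.36 (SE 0.481, 95% interval 1.38 to 3.34, 5.14-fold, adjusted p = 0.0104), at a time when 0.9% of all genes were called. Without saline arrays 2 and 4 of that day, which stand apart, the change was 2.12 and no longer passed (adjusted p = 0.151), and with the 28-day arrays alone in the fit it did not pass either (2.36, adjusted p = 0.153). Nor did it pass on the second scan day alone (1.78, adjusted p = 0.102) or with the smooth muscle and fibroblast marker means as covariates (1.93, adjusted p = 0.141). With the scanner software's own log ratios it was 2.56 (adjusted p = 0.00908).

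The Timp1 change at 7 days exceeded that at 28 days by 2.49 on the log2 scale (SE 0.703, adjusted p = 0.0489), a test that called 2.65% of all genes. It exceeded that at 14 days by 2.39 (SE 0.703, adjusted p = 0.0762), which did not pass, and 1.02% of genes passed there. The first of these calls is at the edge of the threshold: it was lost when any of 13 of the 21 arrays involved was left out singly, with adjusted p up to 0.135. The changes at 14 and 28 days differed by 0.11 (adjusted p = 0.986), and 0% of genes passed there by limma (1357 at an unadjusted p below 0.05). Within scan days the 7-day change was 4.34 and 5.07, the 14-day change 3.07 and 1.90, and the 28-day change 3.21 and 1.78, on the first and second day in each case. The 7-day value of the second day rests on 1 Ang II array against 3 saline arrays, and the other values on 2 or 3 arrays a group.

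The second Timp1 probe also rose in all 4 comparisons with saline, with smaller ratios. It gave 1.13, 0.68 and 1.21 in dissected aortas and 1.93, 1.51, 1.62 and 1.48 in non-dissected Ang II aortas, against a lowest value of -1.71, a median of -1.24 and a highest of -0.87 in 7-day saline aortas. Its change was 2.29 in dissected aortas (4.88-fold, adjusted p = 1.49e-05) and 2.92 in non-dissected aortas (7.55-fold, adjusted p = 3.23e-07). At 14 days it changed by 1.22 (adjusted p = 0.0344) and at 28 days by 1.32 (adjusted p = 0.0331). On this probe all 3 dissected aortas lay below all 4 non-dissected ones, as for 15.1% of all genes, and the difference of -0.63 did not pass (adjusted p = 0.375). Over the 35 arrays both probes had a Pearson correlation of 0.966.

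A further probe lies between them. The array files list it as NAP109359-1 with no gene name, at chrX:20029798-20030047 in mm8, which starts 1 base after the second Timp1 probe ends and ends 1461 bases before the main one starts. It rose by 3.48 in dissected aortas (adjusted p = 2.52e-06), by 4.09 at 7 days (adjusted p = 1.42e-07) and by 1.72 at 14 days (adjusted p = 0.0261), and its change at 28 days was 1.38 (adjusted p = 0.112). Of all tested features it had the highest correlation with Timp1 over the arrays (Pearson r = 0.964).

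Timp3 was lower in dissected aortas than in any other group. The 3 dissected aortas read -0.84, -0.29 and -1.71. The 4 non-dissected Ang II aortas of the same day read 2.50, 2.38, 1.82 and 1.31, and the 7-day saline aortas had a lowest value of 0.36, a median of 1.17 and a highest of 2.25. Every dissected aorta lay below every aorta of these groups, as for 15.1% of all genes against non-dissected and 16.3% against saline aortas. Against non-dissected aortas the log2 difference was -2.95 (SE 0.492, 95% interval -3.95 to -1.95, 7.72-fold lower, adjusted p = 0.000478), and Timp3 was the 1 TIMP gene of 4 called where 8.03% of all genes were called. Against saline it fell by 2.17 (SE 0.455, 95% interval -3.09 to -1.24, 4.49-fold lower, adjusted p = 0.000368).

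Without the 4 arrays that stand apart the Timp3 difference against saline was -2.34. None of these arrays is in the dissected or non-dissected 7-day group, so the difference of -2.95 between those groups could not change. With scan day as a term both comparisons kept their call (-2.60 against non-dissected, adjusted p = 0.00282, and -1.93 against saline, adjusted p = 0.00109). Within the second scan day the Timp3 difference was -2.77 for 3 dissected arrays against 1 non-dissected array, without a call. Under scale normalization between arrays neither comparison passed (-2.58, adjusted p = 0.159, and -1.92, adjusted p = 0.0816).

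The mean of the contractile smooth muscle markers moved in the same direction as Timp3. It ran from -1.07 to -0.12 in dissected aortas and from 0.09 to 0.67 in non-dissected aortas, against -1.11 to 1.04 in 7-day saline aortas. Of its 8 genes, 1 was called lower in dissected aortas than in saline aortas (Des, encoding the intermediate filament desmin, -1.10) and 0 between dissected and non-dissected aortas (1 at an unadjusted p below 0.05). Over all genes, 17.6% and 4.98% were called lower in these comparisons. The mean of the 8 fibroblast markers also ran lower in dissected aortas (-0.55 to 0.43) than in non-dissected ones (0.90 to 1.57), with 1 gene called, Lum, encoding the collagen-binding lumican (-2.45). With both marker means as covariates, an alternative chosen after seeing the data, the Timp3 difference was -2.18 against non-dissected aortas (adjusted p = 0.0012) and -2.22 against saline aortas (adjusted p = 0.001). Both means separated the dissected from the non-dissected aortas, so this fit could not isolate the part of cell content. The mean of 5 neutrophil markers ran higher in dissected aortas (1.04 to 2.04) than in non-dissected ones (-0.16 to 0.41), against -0.55 to 1.03 in 7-day saline aortas. Of these 5 genes, 2 rose against saline, S100a8, encoding a calcium-binding protein of neutrophils (2.48), and Mpo, encoding myeloperoxidase (1.16), where 18.9% of all genes rose. Between dissected and non-dissected aortas 0 passed by limma (3 at an unadjusted p below 0.05), where 8.03% of all genes were called. The parts of smooth muscle, fibroblast and neutrophil content in the Timp3 difference were not tested.

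In the non-dissected Ang II aortas of 7 days and in the Ang II aneurysms of 14 and 28 days, Timp3 did not pass in the reported form. The changes were 0.78 at 7 days (SE 0.415, 95% interval -0.07 to 1.63, adjusted p = 0.162), -0.26 at 14 days (adjusted p = 0.753) and -0.31 at 28 days (adjusted p = 0.774). With array weights the 7-day rise of Timp3 was called (adjusted p = 0.0465 by limma). At 14 days the Ang II aortas read 1.28, 0.75, 0.99, 1.04 and 0.70, inside the saline range of 0.64 to 1.90 (median 1.05). At 28 days the Ang II aortas ran from 0.14 to 2.85 with a median of 1.14, around saline aortas at 1.99, 1.17, 1.54, 1.11 and 2.12. The wide spread at 28 days followed scan day, with a change of 0.90 on the first day and -1.45 on the second. Timp3 was called lower at 28 days in 2 of 19 alternatives (lowest adjusted p = 0.0232 by limma). These were the second scan day alone and scale normalization between arrays. The part of scan day in the result was not tested further.

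**Figure D2:**
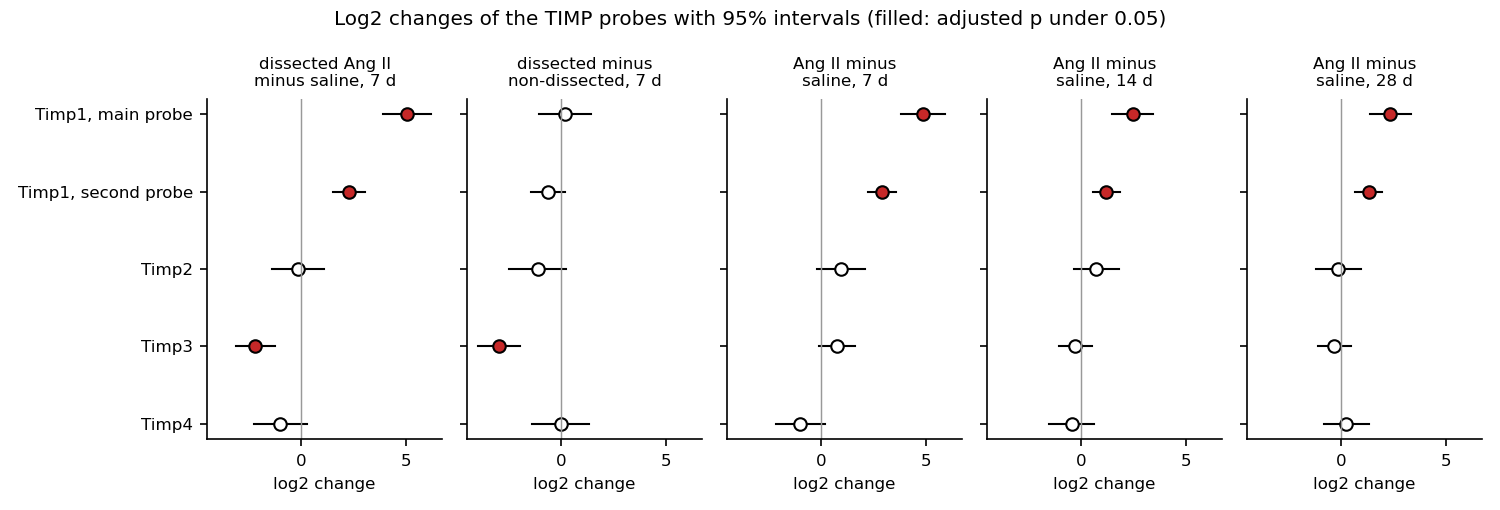
Log2 change of each TIMP probe (points) with its 95% interval (lines) in 5 comparisons, filled where the adjusted p was under 0.05. Both Timp1 probes are filled in the 4 comparisons with saline, Timp3 in both comparisons of dissected aortas, and no Timp2 or Timp4 point is filled.

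Timp2 passed no comparison. The dissected aortas read 0.48, 0.69 and -0.29, the non-dissected 7-day aortas 1.49, 1.58, 1.03 and 1.48, and the 7-day saline aortas a lowest value of -0.78, a median of 0.54 and a highest of 1.05. The dissected aortas lay below every non-dissected aorta, as for 15.1% of all genes, and inside the saline range. The difference between dissected and non-dissected aortas was -1.10 (SE 0.662, 95% interval -2.45 to 0.25, adjusted p = 0.345), and that between non-dissected and saline aortas was 0.96 (SE 0.559, 95% interval -0.18 to 2.10, adjusted p = 0.205). With only the groups compared in the fit, each of these passed (adjusted p = 0.0247 and 0.048).

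At 14 days Timp2 read 0.95, 0.74, 1.60, 2.06 and 0.78 in Ang II aortas, against a lowest value of -0.88, a median of 0.49 and a highest of 1.63 in saline aortas. The Ang II aortas lay in the upper part of the saline range or above it, and the change of 0.74 did not pass (adjusted p = 0.46). At 28 days the Ang II aortas ran from -0.54 to 2.27 with a median of 0.63. The saline aortas read 0.37, -1.25, 0.32, 2.33 and 2.61, where -1.25 and 2.33 are the values of the arrays that stand apart. The change with these arrays was -0.11 (adjusted p = 0.958). That value was 1.61 on the first scan day and -1.39 on the second.

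Timp4 passed no comparison in the reported form, and its values varied widely among aortas of one group. At 7 days it read 2.02, 2.08, 4.36 and 3.66 in non-dissected aortas and 2.91, 2.50 and 3.63 in dissected aortas, against a lowest value of 2.90, a median of 4.21 and a highest of 4.84 in saline aortas. The lowest aortas of both Ang II groups lay below every saline aorta, and the others inside the saline range. The changes were -0.98 (SE 0.566, adjusted p = 0.202) in non-dissected aortas and -0.99 (SE 0.62, adjusted p = 0.218) in dissected aortas, and did not pass. Without the 4 arrays that stand apart they were -1.20 (adjusted p = 0.0422) and -1.22 (adjusted p = 0.0427), both past the threshold. In dissected aortas Timp4 was called lower in 2 of 17 alternatives, this one included (lowest adjusted p = 0.029 by limma).

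At 14 days Timp4 read 3.76, 2.91, 3.29, 3.91 and 4.09 in Ang II aortas, against a lowest value of 3.46, a median of 3.96 and a highest of 4.92 in saline aortas (change -0.44, adjusted p = 0.685). At 28 days the Ang II aortas ran from 2.46 to 4.18 with a median of 3.57, against saline aortas at 5.04, 2.28, 3.90, 0.81 and 4.24 (change 0.26, adjusted p = 0.882). The saline values of 2.28 and 0.81 are those of the arrays that stand apart. They were 3.73 and 2.78 without background correction, and 4.32 and 3.05 in the scanner software's log ratios. Without these arrays the 28-day change was -0.88 (adjusted p = 0.569).

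Ordered by group mean, Timp1 ran from dissected (3.18 ± 0.20) through non-dissected 7 days (2.96 ± 0.47), Ang II 14 days (1.08 ± 0.82) and Ang II 28 days (0.99 ± 0.67) to saline 28 days (-1.37 ± 0.87), saline 14 days (-1.39 ± 1.23) and saline 7 days (-1.89 ± 0.78, all SD). Of the 6 steps between neighbours, the step below non-dissected 7 days (1.88, adjusted p = 0.031) and the step below Ang II 28 days (2.36, adjusted p = 0.0104) passed. For Timp3 the last step, which placed dissected aortas (-0.95 ± 0.72) below Ang II 14 days, was 1.90 (SE 0.47, adjusted p = 0.00504), and the adjusted p of the other steps was at least 0.551. No step passed for Timp2 or Timp4. None of the 4 genes passed a test of change over time among the saline aortas (adjusted p = 0.836, 0.913, 0.880 and 0.724 for Timp1 to Timp4), where 0.503% of all genes passed.

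Over the 35 arrays the Pearson correlation was 0.33 between Timp1 and Timp2, -0.17 between Timp1 and Timp3, -0.26 between Timp1 and Timp4, 0.43 between Timp2 and Timp3, -0.23 between Timp2 and Timp4 and 0.05 between Timp3 and Timp4. These describe arrays that share a reference RNA and the group structure. Within groups, Timp1 and Timp2 correlated at 0.46, Timp2 and Timp3 at 0.45, and Timp1 and Timp4 at 0.11. Without the 4 arrays that stand apart, the correlation was 0.51 for Timp2 and Timp3 and -0.57 for Timp1 and Timp4.

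The enzymes that TIMPs inhibit were read on the same arrays. Of 23 matrix metalloproteinase genes listed, 15 were tested. In dissected aortas 5 rose against saline, led by Mmp14, the membrane-bound collagenase that pairs with TIMP-2 (3.63, adjusted p = 3.12e-08), and Mmp9, the gelatinase of neutrophils and macrophages (2.18, adjusted p = 3.95e-05). The others were Mmp8, the neutrophil collagenase (1.10), Mmp19 (1.00) and Mmp11 (0.75), and none fell, where 18.9% of all genes rose and 17.6% fell.

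In non-dissected aortas at 7 days 5 also rose and none fell, where 14.5% of all genes rose and 12.6% fell. They were Mmp14 (3.19, adjusted p = 1.11e-07), Mmp23 (1.96), Mmp2, a gelatinase (1.51), Mmp19 (0.81) and Mmp11 (0.63). At 14 days Mmp14 (1.70), Mmp2 (1.60) and Mmp19 (0.62) rose, where 1.12% of all genes rose and 1.28% fell. At 28 days Mmp12, the macrophage elastase, rose (1.05, adjusted p = 0.0161), where 0.836% of all genes rose and 0.0643% fell. Without the 4 arrays that stand apart, 1 of the 15 rose at 14 days and 0 at 28 days by limma, where 4 had an unadjusted p below 0.05 at each time. Mmp3 had a change of 1.44 at 7 days (adjusted p = 0.116) and Mmp13 one of 0.54 (adjusted p = 0.439), neither past the threshold.

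Mmp9 was the 1 metalloproteinase gene of 15 that differed between dissected and non-dissected aortas, higher by 2.05 (adjusted p = 0.00234), where 3.06% of all genes were higher and 4.98% lower. The neutrophil marker mean, which includes neither Mmp9 nor Mmp8, was higher in the same aortas, with the ranges of 1.04 to 2.04 and -0.16 to 0.41 given above, and its part in the Mmp9 difference was not tested. In the same 3 aortas Timp3 was lower, and Timp1 did not pass the test. The median change over the 15 genes was 0.38 in dissected aortas, 0.28 at 7 days, 0.08 at 14 days and 0.21 at 28 days, against medians of -0.04, -0.00, 0.00 and 0.04 over all genes.

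**Figure D3:**
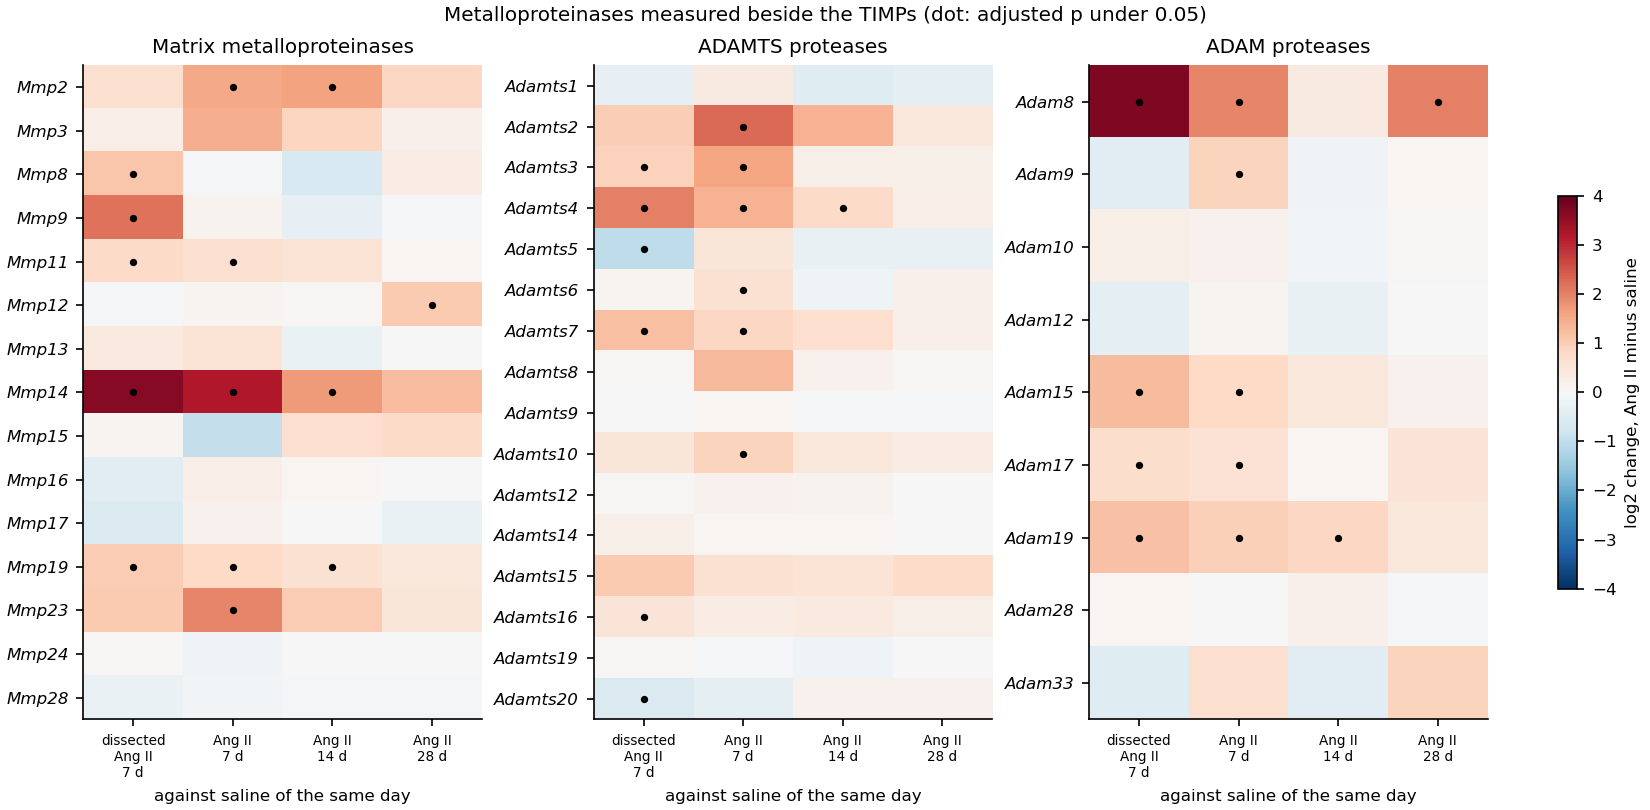
Log2 change against saline of the same day for the tested matrix metalloproteinase (15), ADAMTS (16) and ADAM (9) genes in 4 comparisons, coloured on 1 scale with a dot where the adjusted p was under 0.05. Mmp14 and Adam8 have the deepest colour in the dissected column, and Adamts5 is among the few dotted genes that fell.

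The ADAMTS genes include the aggrecanases that TIMP-3 inhibits. In dissected aortas 4 of 16 rose, led by Adamts4 (2.03, adjusted p = 2.16e-07), Adamts7 (1.21), Adamts3 (0.92) and Adamts16 (0.52). Adamts5 fell by 1.01 (adjusted p = 0.00891) and Adamts20 fell by 0.57, where 18.9% of all genes rose and 17.6% fell. Adamts5 was also lower in dissected than in non-dissected aortas (-1.49, adjusted p = 0.00491), as was Adamts3 (-0.67), where 4.98% of all genes were lower. At 7 days 6 rose and none fell, where 14.5% of all genes rose and 12.6% fell. The largest rises were in Adamts2, a procollagen N-proteinase (2.27), Adamts3 (1.59), Adamts4 (1.40) and Adamts10 (0.90). At 14 days Adamts4 rose (0.76), where 1.12% of all genes rose. At 28 days 0 of 16 passed (0 at an unadjusted p below 0.05), where 0.9% of all genes were called. Adamts1 passed nowhere (0.37 at 7 days and -0.32 in dissected aortas).

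Among 9 catalytic ADAM genes, 4 rose in dissected aortas, where 18.9% of all genes rose. Adam8 of myeloid cells led with 3.73 (adjusted p = 3.2e-06), followed by Adam15 (1.27) and Adam19 (1.18). Adam17, the sheddase that releases tumour necrosis factor and is inhibited by TIMP-3, changed by 0.71 (adjusted p = 0.00306), a direction that turned under median centring (-0.06). At 7 days 5 rose, where 14.5% of all genes rose. They were Adam8 (1.95), Adam19 (0.96), Adam9 (0.88), Adam15 (0.78) and Adam17 (0.56, adjusted p = 0.0145). Adam19 rose at 14 days (0.84) and Adam8 at 28 days (2.00), where 1.12% and 0.836% of all genes rose. Adam9 was lower in dissected than in non-dissected aortas (-1.34, adjusted p = 0.000636), where 4.98% of all genes were lower.

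Of 8 other genes tested, among them inhibitors, modulators and collagen-processing genes, 3 rose and 0 fell in dissected aortas, and likewise at 7 days. Over all genes 18.9% rose and 17.6% fell in dissected aortas, and 14.5% rose and 12.6% fell at 7 days. Of the collagen-processing genes, Serpinh1, the collagen chaperone, changed by 3.23 in dissected aortas and 2.94 at 7 days, and Pcolce, a procollagen C-proteinase enhancer, by 1.61 and 2.19. At 14 and 28 days 0 of the 8 passed (1 and 0 at an unadjusted p below 0.05), where 2.4% and 0.9% of all genes were called. Reck, a membrane-anchored inhibitor of MMP-2, MMP-9 and MMP-14, read -1.31 in dissected aortas against saline (adjusted p = 0.0728) and -1.90 against non-dissected aortas (adjusted p = 0.0524). Reck was among the 5 genes most like Timp3 over the 35 arrays (r = 0.869), and ranked 7 without the 4 arrays that stand apart.

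The 11 receptors and binding partners of TIMP proteins included 4 that rose and 2 that fell in dissected aortas, where 18.9% of all genes rose and 17.6% fell. Acan (2.56) and Vcan (2.00), the proteoglycans cut by aggrecanases, rose, as did Cd44, a hyaluronan receptor (1.02), and Lrp1, the endocytic receptor of TIMPs (0.99). Itgb1, the integrin chain that partners CD63 as receptor of TIMP-1, fell by 1.13, and Igf1r fell by 0.86. At 7 days Vcan (2.48), Acan (2.43), Lrp1 (1.44), Cd44 (1.27) and Cd63 (0.87) rose and none fell, where 14.5% of all genes rose and 12.6% fell. Itgb1 was lower in dissected than in non-dissected aortas (-1.37, adjusted p = 0.0286), where 4.98% of all genes were lower. At 14 and 28 days 0 of the 11 passed (2 and 4 at an unadjusted p below 0.05), where 2.4% and 0.9% of all genes were called.

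Of 19 cytokines and transcription factors listed as known inducers of Timp1, 18 were tested. In dissected aortas 8 rose and Ets1 fell by 0.82, where 18.9% of all genes rose and 17.6% fell. The largest rises were in Il1b, an inflammatory cytokine (3.02), Junb, an AP-1 subunit (1.86), Stat3, which carries interleukin-6 signals (1.60), and Tgfb1 (1.56). At 7 days 9 rose and none fell, where 14.5% of all genes rose and 12.6% fell. The largest then were Tgfb2 (1.59), Il1b (1.43), Il6 (1.42) and Tgfb3 (1.32). At 14 and 28 days 0 of the 18 passed (2 and 3 at an unadjusted p below 0.05), where 2.4% and 0.9% of all genes were called. Between dissected and non-dissected aortas 1 of the 18 differed, Tgfb1 (0.72, adjusted p = 0.00839), where 8.03% of all genes were called. Without the 4 arrays that stand apart, the counts higher and lower in dissected aortas were 5 and 1 for the matrix metalloproteinases, 4 and 2 for the ADAMTS genes, 4 and 0 for the ADAM genes, 3 and 2 for the other inhibitors, modulators and collagen-processing genes, 4 and 2 for the partners and 9 and 2 for the inducers.

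Each TIMP gene overlaps another gene. Timp1, Timp3 and Timp4 lie inside the synapsin genes Syn1, Syn3 and Syn2, and Cep295nl lies inside Timp2. In dissected aortas, where 36.5% of all genes were called, Syn3 rose slightly (0.39, adjusted p = 0.0326) while Timp3 fell. The values of -0.10 for Syn1, 0.23 for Syn2 and 0.43 for Cep295nl did not pass. At 7 days Syn1 had a value of 0.59 (adjusted p = 0.0728), against the 4.86 of Timp1. Syn2 fell by 2.15 (adjusted p = 0.0308), Cep295nl rose by 0.94 (adjusted p = 0.000614), and Syn3 had a value of 0.05, where 27.2% of all genes were called. At 14 and 28 days 0 of the 4 passed (0 and 1 at an unadjusted p below 0.05), where 2.4% and 0.9% of all genes were called.

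The tested genes whose values were most like each TIMP over the 35 arrays differed between members. After the unnamed neighbouring probe, Timp1 was most like Rab7b, an endosomal GTPase (r = 0.937), Piezo2, a stretch-gated channel (0.933), Loxl2, a collagen cross-linking enzyme (0.932), and Mmp14 (0.931). Timp2 was most like Dcn, the collagen-binding proteoglycan decorin (0.892), Glg1 (0.874), Pdlim2 (0.868) and the transcript AK214671 (0.867). Timp3 was most like Cd81, a tetraspanin (0.907), the probe A_51_P350172 (0.893), Selenof (0.891), Kat6b (0.872) and Reck. Timp4 was most like Tmem45b (0.884), Fam13a (0.858), Cyp4b1 (0.840), Ccdc69 (0.831) and the transcript AK199310 (0.828). Without the 4 arrays that stand apart, Rab7b ranked 6 and Loxl2 11 for Timp1, Glg1 6 and Dcn 8 for Timp2, Reck 7 and Kat6b 10 for Timp3, and Cyp4b1 7 and Fam13a 9 for Timp4. The other genes named stayed among the 5 most like, and AK214671 then ranked 1 for Timp2.

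Cell markers moved with the members, and some lists with more than 1 member. The mean of 10 macrophage markers ran from 0.72 to 1.71 in dissected aortas and from 0.63 to 1.23 in non-dissected aortas, against -1.72 to -0.71 in 7-day saline aortas. All 10 genes rose in both comparisons, where 18.9% and 14.5% of all genes rose. At 14 days the macrophage mean ran from 0.19 to 0.41 in Ang II aortas, against -0.92 to 0.05 in saline aortas. Of the 10 genes 0 passed there (7 at an unadjusted p below 0.05), where 2.4% of all genes were called. At 28 days the macrophage mean ran from -0.26 to 1.06 in Ang II aortas, against -1.51 to -0.14 in saline aortas. At that time 4 rose (0 without the 4 arrays that stand apart), where 0.836% of all genes rose. Of these 4, Lyz2 (1.59) and C1qb (2.11) turned direction under scale normalization between arrays (-2.67 and -0.14). Timp1 correlated with this mean at 0.91 over the 35 arrays and at 0.53 within groups. The mean of 8 cell division genes ran from 1.06 to 1.32 in dissected aortas and from 1.00 to 1.52 in non-dissected aortas, against -1.35 to -0.16 in 7-day saline aortas. Of these 8 genes, 7 rose in dissected aortas and 8 at 7 days, against 18.9% and 14.5% of all genes. Among them was Mki67, a marker of cycling cells (3.23 and 3.16). Timp1 correlated with this mean at 0.77 (within groups 0.17, and 0.86 without the 4 arrays that stand apart). Timp1 correlated with the fibroblast markers at 0.73 (within groups 0.57). Of these markers 2 of 8 rose in dissected aortas and 6 at 7 days, against the same 18.9% and 14.5% of all genes. With the smooth muscle and fibroblast means as covariates, Timp1 kept its call in dissected aortas (4.60, adjusted p = 3.8e-05) and at 7 days (3.53, adjusted p = 0.0387). The parts of macrophage, fibroblast and smooth muscle content and of cell division in the Timp1 change were not tested.

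Timp2 correlated most with the fibroblast markers (0.74, within groups 0.82), a list that holds Dcn, and with the smooth muscle markers at 0.60 (within groups 0.67). Timp3 correlated with the smooth muscle markers at 0.64 (within groups 0.69) and with the fibroblast markers at 0.35 (within groups 0.67). Timp4 correlated with the adipocyte markers at 0.76 (within groups 0.85), with the brown adipocyte markers at 0.73 (0.75) and with the endothelial markers at 0.71 (0.79). These 3 values were 0.61, 0.66 and 0.56 without the 4 arrays that stand apart. Without those arrays Timp4 correlated negatively with the macrophage markers (-0.63), the cell division genes (-0.60) and the fibroblast markers (-0.52). Over the 35 arrays these negative values were -0.23, -0.54 and -0.15. The adipocyte mean ran from 0.20 to 0.28 in dissected aortas and from -0.55 to 0.32 in non-dissected aortas, against -0.53 to 0.61 in 7-day saline aortas. Of its 7 genes 1 was called at 7 days (Pparg, the regulator of fat cell differentiation, -1.08), where 27.2% of all genes were called. All these correlations are over arrays and describe mixtures of cells. With the smooth muscle and fibroblast means as covariates, the Timp4 value at 7 days was 0.36 (adjusted p = 0.926), the opposite direction to the -0.98 above.

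**Figure D4:**
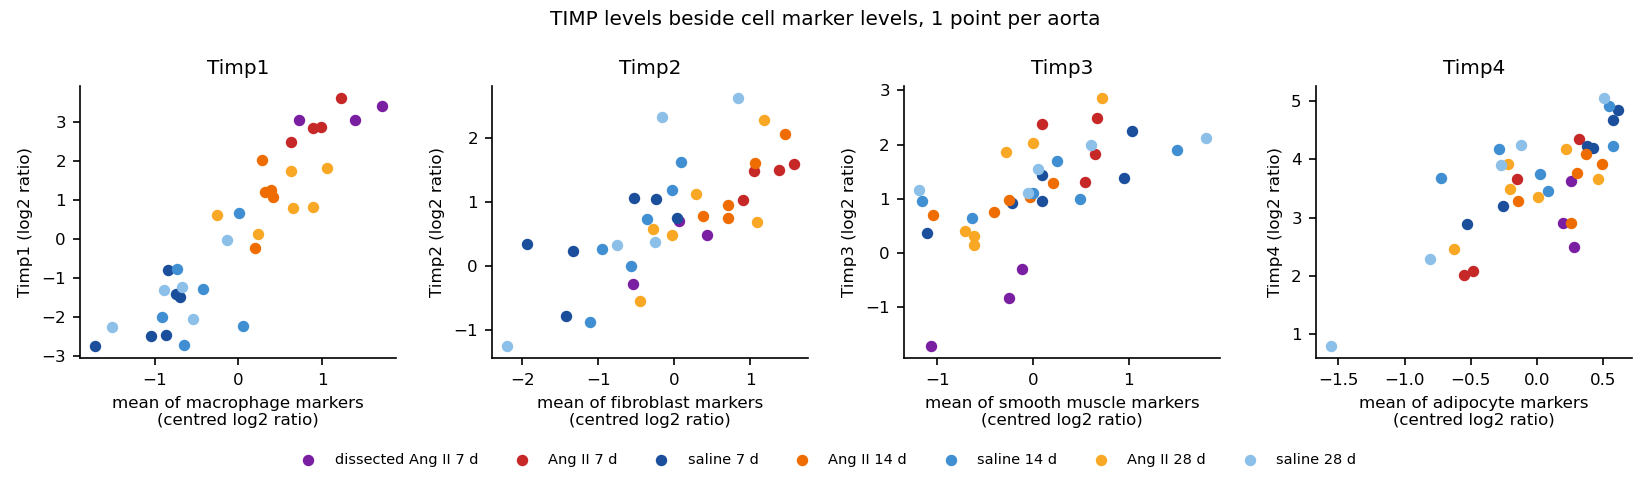
Log2 ratio of each TIMP gene (vertical axis) against the mean of 1 marker list (horizontal axis, centred log2 ratio), 1 point per aorta, coloured by group. In the Timp1 panel the 7-day Ang II aortas lie at the upper right and the saline aortas at the lower left (r = 0.91), and the 3 dissected aortas lie below the others in the Timp3 panel.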

How the data were processed

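RNA of 35 suprarenal aortas was measured on two-colour arrays with 45018 spots. The authors' deposited scanner files hold Cy5 and Cy3 intensity values and a log10 ratio per spot, for which the submitters' processing notes name Feature Extraction 9.5.3.1. The deposited series table holds log2 ratios, with Cy5 over Cy3 as in the scanner files (correlation 0.986 to 1). Aorta RNA was amplified and reference RNA labelled directly per the labels, without dye swap, so dye effects are shared by all groups.

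Mean intensity values were corrected by normexp (offset 50, all spots) and loess within each array in limma 3.58.1 (R 4.3.3), with control and non-uniform spots at weight 0. Probes well above background in the aorta channel on 3 or more arrays were kept, 27825 of 41174, and the brightest probe stood for a gene. Of the probes, 24375 were named by accession, 6301 by current and 2426 by older symbol through RefSeq, and 8072 kept the file's name. A model of 7 group means (28 residual degrees of freedom) was fitted over 18671 genes and p-values were adjusted by Benjamini-Hochberg, with 0.05 as threshold. For 134 genes a flagged value was left out on some array. The number of arrays limits the precision. The script was tested on simulated data.

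The members and lists were chosen with earlier results of these data known. Named were all TIMP probes, up to 4 called rises and 3 called falls per list and comparison, the overlapping genes, the 5 genes most like each TIMP, and Mmp2, Mmp3, Mmp9, Mmp12, Mmp13, Mmp14, Adam17, Adamts1, Adamts4, Adamts5 and Reck. Some genes that this rule names are not reported here. Marker means are over tested genes, each centred over arrays. Alternatives covered background, normalization, filter, probe, scan day, slide, replicate block, samples fitted, array weights and covariates. The labels give no meaning to replicate numbers. The deviations of equally numbered samples correlated above 0.1 in all 3 pairs of dissected and saline aortas at 7 days (0.130 to 0.498), which meets the rule for pairing in that comparison, and not in every pair of the other 4 comparisons (-0.40 to 0.59).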

Additional observations from a re-analysis of the deposited data

Results flagged for a closer look

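The Timp1 change after 7 days of Ang II exceeded the change after 28 days by 2.49 on the log2 scale (adjusted p = 0.0489 by limma), which is flagged because the difference between the effects at 2 times passed its own test. The changes were 4.86 at 7 days and 2.36 at 28 days. The second Timp1 probe gave a difference of 1.60 (adjusted p = 0.054), and the unnamed probe beside it 2.72 (adjusted p = 0.0144). The macrophage marker mean ran from 0.63 to 1.23 in 7-day and from -0.26 to 1.06 in 28-day Ang II aortas, and its part in the difference was not tested. Of 20 alternatives, 4 kept the call, 15 lost it with the same direction and 1 turned the direction.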

How the results depend on the processing

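The rise of Timp1 at 7 days and in dissected aortas kept its direction and its call under every alternative run (19 and 18 settings, 2.92 to 5.10 and 2.29 to 5.74), although the 7-day value of scan day 2 rests on 1 Ang II array. The fall of Timp3 in dissected aortas kept its direction in 17 settings against saline (-2.85 to -1.69) and in 17 against non-dissected aortas (-3.45 to -2.18), and lost its call as given below. The cause of the lost or turned results was not tested. Changes of Timp2 and Timp4 that turned direction did not pass in the form reported, and 1 probe each and 3 to 6 arrays per group limit what could be told. The aorta channel read 8313 to 94775 for the Timp2 probe and 256 to 4182 for the Timp4 probe, over backgrounds of 58.5 to 77.5.

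The excess of the Timp1 change at 7 days over 28 days was not called, and the count of TIMP genes called there was 0, under median centring (2.28), normexp offset 10 (2.50), no background correction (2.46), the scanner software's log ratios (2.54), the deposited series table (2.54), no filter on dim probes (2.49), scan day as a term (2.50), only scan day 1 (1.13), only scan day 2 (3.29), neighbouring tissue scores as covariates (2.17) and, chosen after seeing the data, the 4 arrays left out (2.57), only saline arrays 2 and 4 of 28 days left out (2.74) and smooth muscle and fibroblast scores as covariates (1.60). The second probe gave 1.60, not called, and scale normalization turned the value (-0.52, count 0).

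Under scale normalization 0 TIMP genes were called at 14 days (Timp1 1.97), 2 at 28 days (Timp1 and Timp3), 1 in dissected aortas against saline (Timp3 -1.92), 0 between dissected and non-dissected aortas (Timp3 -2.58) and 1 over time in saline (Timp3), and Timp4 at 28 days turned to -2.43. With only scan day 2, the count was 0 at 14 days (Timp1 1.90). Timp3 between dissected aortas and the 1 non-dissected array was -2.77 and lost its call. At 28 days Timp1 was 1.78 and not called, while Timp3 was -1.45 and called lower. Timp4 at 7 days turned to 0.36 and Timp2 in dissected aortas to 0.37. Only scan day 1 turned Timp2 (1.61) and Timp3 (0.90) at 28 days and the Timp3 difference between 7 and 28 days (-0.53). With only the groups compared in the fit, 2 TIMP genes were called at 7 days, 0 at 14 days (Timp1 2.47), 0 at 28 days (Timp1 2.36) and 2 between dissected and non-dissected aortas.

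Array weights called 2 at 7 days (Timp1 and Timp3), 2 between dissected and non-dissected aortas (Timp2 and Timp3) and 1 between 7 and 14 days. The software ratios and the series table also called 1 each in that last test. Array weights turned Timp2 (0.14) and Timp4 (-0.59) at 28 days and Timp4 between dissected and non-dissected aortas (0.19). Timp4 turned at 28 days under no background correction (-0.36), the software ratios and the series table (-0.27 each), and between dissected and non-dissected aortas under these (0.0078, 0.20 and 0.20) and normexp offset 10 (0.20). Timp1 between dissected and non-dissected aortas turned under median centring (-0.15) and on the second probe (-0.63), and Timp2 at 28 days under median centring (0.0011). Neighbouring tissue scores turned Timp4 at 7 days (0.037), Timp3 at 14 days (0.33), and Timp2 (0.14) and Timp4 (-0.070) at 28 days.

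Of the alternatives chosen after seeing the data, leaving out the 4 arrays called 2 TIMP genes at 7 days and 0 at 28 days (Timp1 2.12, Timp4 -0.88), and leaving out saline arrays 2 and 4 of 28 days called 0 there (2.12 and -0.88). Smooth muscle and fibroblast scores called 0 at 14 days (Timp1 1.69) and 0 at 28 days (Timp1 1.93). They turned Timp2 (-1.35), Timp3 (-0.037) and Timp4 (0.36) at 7 days, Timp2 (-0.72) and Timp4 (1.00) at 14 days, Timp4 in dissected aortas (0.32) and Timp2 between dissected and non-dissected aortas (0.25).

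Equal replicate numbers met the pairing rule only in dissected against saline aortas, where the replicate block changed no TIMP call (Timp1 5.06, Timp3 -2.58). With the block the Timp1 excess at 7 over 28 days was 2.25 and not called (count 0), Timp2 at 28 days turned to 0.039, and no other TIMP call changed. The block moved the genes called to 290 at 7 against 14 days and 226 at 7 against 28 days, and to 0 over time in saline (191, 494 and 94 without it).

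Leaving out 1 array at a time gave 2.16 to 2.72 for the Timp1 excess at 7 over 28 days (count 0 to 1), a count of 0 to 1 for 7 against 14 days, -0.64 to 0.32 for Timp2 at 28 days, -0.39 to 0.15 for Timp2 in dissected aortas, -0.36 to 0.70 for Timp4 at 28 days and -0.35 to 0.43 for Timp4 between dissected and non-dissected aortas.

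Over all genes, 5070, 449, 168, 6819 and 1500 were called at 7, 14 and 28 days, in dissected aortas against saline and against non-dissected aortas. These counts were 876, 6, 4082, 2081 and 77 under scale normalization, 1561, 121, 67, 6311 and 1852 under median centring, 7905, 993, 253, 10199 and 5230 with array weights, 6310, 579, 426, 8501 and 2819 with the software ratios, 5236, 118, 0, 6496 and 2315 with only the groups compared, 4846, 75, 7, 7234 and 1608 without the 4 arrays, and 52, 0, 5, 3478 and 1516 with both scores. Only scan day 1 gave 2744, 19 and 11 for the first 3, and only scan day 2 gave 199, 1, 1468, 5742 and 8. With scan day as a term 861 genes differed between dissected and non-dissected aortas. Median centring moved the median change of all genes to -0.36 in dissected aortas and -0.29 against non-dissected aortas, and the split of calls in dissected aortas to 872 higher and 5439 lower (3526 and 3293 in the reported form), and against non-dissected aortas to 55 higher and 1797 lower (571 and 929). Under scale normalization the split at 7 days was 692 higher and 184 lower (2711 and 2359), and at 28 days 2708 and 1374 (156 and 12). Among called genes of the lists, Adam17 and the Timp1 inducer Runx1 in dissected aortas turned under median centring, and the macrophage markers Lyz2 and C1qb at 28 days under scale normalization.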
